A study of Mus musculus with 4 samples.

Results

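The *Sox* family of transcription factors was followed across 4 cell populations of the newborn mouse inner ear. The table held 12814 genes, and the 8 *Sox* genes taken here by symbol (*Sox2*, *Sox4*, *Sox5*, *Sox6*, *Sox9*, *Sox10*, *Sox11* and *Sox21*) were all among them. Hair cells (HCs), the mechanosensory cells of the ear, and epithelial non-sensory cells (ENSCs) were sorted from the cochlea, which serves hearing, and from the vestibular system, which serves balance. All animals were newborn *Atoh1/nGFP* mice of the C57BL/6 background, in which sequences that control *Atoh1* drive a nuclear green fluorescent protein in HCs. HCs were sorted as cells with this protein and the epithelial surface protein CD326, and ENSCs as cells with CD326 alone, so that ENSCs mix supporting cells with the other epithelial cells of the organ. Inner ears of several mice were pooled for each sample. Each population had 1 library, the triplicates named in the design text had no columns of their own here, and therefore no value has a replicate error and no test between populations could be made.

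SOX proteins bind DNA through the HMG box, a domain that bends the helix, and they are sorted into groups by the likeness of this box. SOX2 (group B) is needed for the sensory patches of the ear to form and is kept in supporting cells, and SOX21 is its relative in the same group. SOX4 and SOX11 (group C) act in immature neural and sensory precursors. SOX5 and SOX6 (group D) lack an activation domain of their own and work together with SOX9 (group E) on cartilage genes. SOX9 also acts in the early otic placode, and SOX10 (group E) in otic epithelium, glia and pigment cells.

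To show how close the members are, the best conserved 60 bases of the HMG box that lie in 1 exon in every member are given as coding strand, from the mm9 genome (NCBIM37) with its GENCODE annotation. Capitals mark the 31 bases that are identical in all 8 genes, and a second gene of the same group follows its partner.
Sox2 (chr3:34549461-34549520, plus strand): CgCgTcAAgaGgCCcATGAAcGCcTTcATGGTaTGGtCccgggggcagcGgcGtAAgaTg
Sox21 (chr14:118634780-118634839, minus strand): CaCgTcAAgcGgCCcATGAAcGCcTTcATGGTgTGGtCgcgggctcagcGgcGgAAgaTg
Sox4 (chr13:29044660-29044719, minus strand): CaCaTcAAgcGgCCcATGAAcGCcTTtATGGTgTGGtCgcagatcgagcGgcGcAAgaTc
Sox11 (chr12:28027073-28027132, minus strand): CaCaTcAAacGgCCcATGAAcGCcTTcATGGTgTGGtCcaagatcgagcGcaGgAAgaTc
Sox5 (chr6:143789743-143789802, minus strand): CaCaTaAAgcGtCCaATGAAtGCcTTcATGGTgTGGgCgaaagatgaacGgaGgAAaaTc
Sox6 (chr7:122633226-122633285, minus strand): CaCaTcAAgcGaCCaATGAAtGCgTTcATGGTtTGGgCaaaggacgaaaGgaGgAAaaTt
Sox9 (chr11:112644208-112644267, plus strand): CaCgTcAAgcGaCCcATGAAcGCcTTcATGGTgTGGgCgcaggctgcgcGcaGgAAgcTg
Sox10 (chr15:78993781-78993840, minus strand): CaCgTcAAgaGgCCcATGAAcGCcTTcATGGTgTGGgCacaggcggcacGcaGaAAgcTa

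Over the 237 bases of the whole box the 4 pairs within a group shared 82.3% to 89.0% of bases, and the 24 pairs between groups 56.5% to 73.4%. This matters for the measurement, because reads were aligned by their first 50 nt. The longest exact stretch shared by transcripts of any pair was 48 nt, between *Sox4* and *Sox11*. Thus no 50-nt stretch of these transcripts matched 2 members exactly. Matches with mismatches were not examined. In other coding transcripts, 50-nt stretches of the longest transcript were found for *Sox4* (7.50%, in a second gene model of the same name nested in it) and *Sox5* (0.181%), and for none of the other 6 members.

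The values are quantile-normalized read counts per gene with a floor of 20, called signal here. They are not divided by gene length, and each column sums to 7830343, so they carry no depth. All members were above the floor in all 4 libraries, and also above a low range, up to 20 in vestibular ENSCs and up to 30.5 in vestibular HCs (the libraries at the ends), in which a gene's value followed its highest signal in the other libraries. As a check of the sort, all 10 listed HC markers exceeded their ENSC signal at least 3-fold in HCs of either organ (8.39% of all genes for the cochlea and 13.8% for the vestibular system). Of the 10 supporting cell markers 4 were at least 3-fold lower in cochlear HCs than in ENSCs, and 3 in vestibular HCs (9.20% and 14.3% of all genes). Their median log2 ratios were -1.08 and -0.12. *Lfng* was higher in HCs of both organs, and *Prox1*, *Tectb* and *Sparcl1* in vestibular HCs, all by less than 3-fold. The 5 epithelial markers summed to 7431 in cochlear HCs, 9905 in cochlear ENSCs, 1758 in vestibular HCs and 21993.75 in vestibular ENSCs. *Cdh1* (6003) made up most of the cochlear HC sum, and the other 4 were at least 3-fold lower in cochlear HCs than in ENSCs, as all 5 were in vestibular HCs. In bulk samples a lower signal can stem from fewer cells of a type or from less RNA per cell, and these cannot be told apart.

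HCs were first set against ENSCs of the same organ. In the cochlea 7 of the 8 *Sox* genes had a lower signal in HCs, as did 46.55% of all genes, and *Sox2* alone was slightly higher. *Sox5*, *Sox9* and *Sox10* lay past 3-fold in this direction, and no member did in the other. In the vestibular system *Sox2* and *Sox21*, both of group B, were at least 3-fold higher in HCs, whereas *Sox6*, *Sox9* and *Sox10* were at least 3-fold lower. Over all genes, 8.39% were at least 3-fold higher and 9.20% were that much lower in cochlear HCs, and the shares were 13.8% and 14.3% for vestibular HCs. The median cochlear log2 ratio of the members was -1.05 and the vestibular one -1.23, beside 0 and -0.0045 over all genes. The members were chosen for their family and with results of these data known, so these shares are a description of 8 genes.

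**Figure D1:**
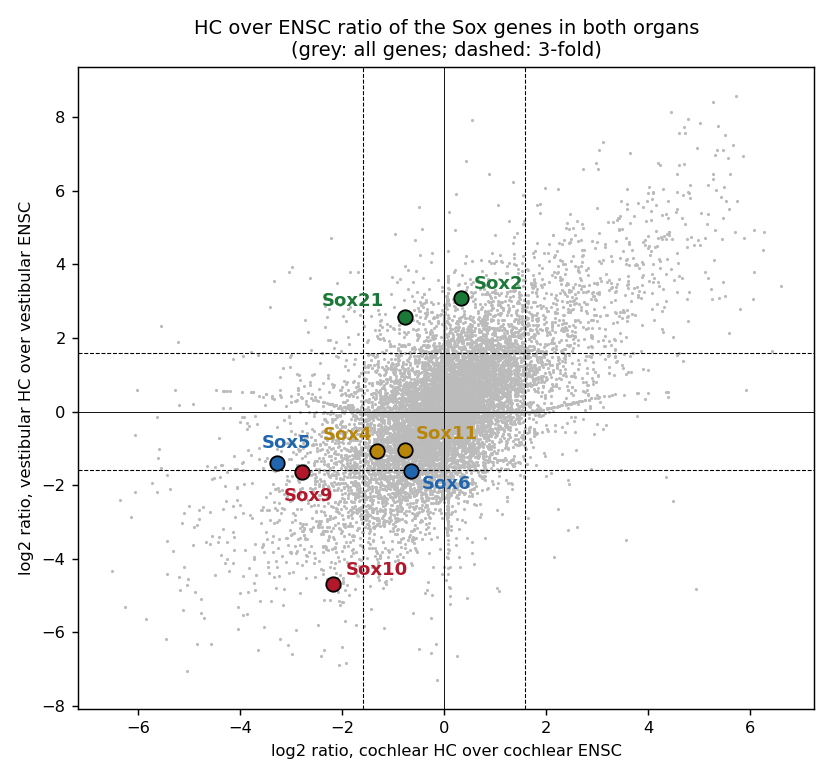
Log2 ratio of HC over ENSC signal in the vestibular system (vertical axis) against the cochlea (horizontal axis), 1 library per population, with all 12814 genes in grey, the 8 Sox genes in colour by group and dashed lines at 3-fold. Sox2 (0.34 and 3.09) and Sox21 (-0.77 and 2.56) lie above the upper line for the vestibular system, and the other 6 lie below 0 on both axes.

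*Sox2* (ENSMUSG00000074637, chromosome 3, 34548927 to 34551383, plus strand, a single exon of 2457 bases) had a signal of 2659.5 in cochlear HCs, 2103.75 in cochlear ENSCs, 3960.75 in vestibular HCs and 465.75 in vestibular ENSCs. The outlying library was thus vestibular ENSCs, and the other 3 lay within a narrower range. Its HC over ENSC log2 ratio was 0.34 for the cochlea. That for the vestibular system was 3.09, and 3.92% of all genes had a larger one. *Sox2* lies in an intron of the long non-coding transcript *Sox2ot*, on the same strand, and shares no exonic base with it. *Sox2ot* had 93.5, 34.75, 99.25 and 42.5 in the same order of libraries. It was thus higher in HCs of both organs by less than 3-fold (log2 ratios 1.43 and 1.22) and did not show the low vestibular ENSC level of *Sox2* relative to cochlear ENSCs.

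*Sox21* (ENSMUSG00000061517, chromosome 14, 118632454 to 118636252, minus strand, 3799 bases in 1 exon) had 867.75 in cochlear HCs, 1476.75 in cochlear ENSCs, 1568.75 in vestibular HCs and 265.5 in vestibular ENSCs. Vestibular ENSCs again held the lowest signal. Its log2 ratios had opposite signs, -0.77 (cochlea) and 2.56 (vestibular system), and 6.04% of all genes exceeded the latter. The difference of these ratios, vestibular minus cochlear, was 3.33 and was the largest of the 8 members. Only 205 of 12814 genes (1.60%) had a larger one. For *Sox2* the difference was 2.75, exceeded by 372 genes.

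An annotated long non-coding transcript on the opposite strand, *Gm4675*, covers 713 exonic bases (18.8%) of *Sox21*. The strand setting of the counting is not given in the sources used here, and without strand the reads of both cannot be told apart in the shared part. *Gm4675* had 114.25 in cochlear HCs, 168.25 in cochlear ENSCs and 282.25 in vestibular HCs and was at the floor of 20 in vestibular ENSCs. Its signal was at least 14.1-fold higher in vestibular HCs than in vestibular ENSCs. In the 3 libraries above the floor it was 11.4% to 18.0% of the *Sox21* signal.

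*Sox9* (ENSMUSG00000000567, chromosome 11, 112643538 to 112649074, plus strand, 4135 exonic bases) led the family by signal in both ENSC libraries. It stood at 936.75 in cochlear HCs, 6452.5 in cochlear ENSCs, 1364.5 in vestibular HCs and 4269.25 in vestibular ENSCs. Both HC libraries lay below both ENSC libraries. The signal was 6.89-fold lower in HCs in the cochlea (log2 ratio -2.78) and 3.13-fold lower in the vestibular system (-1.65). The vestibular value was close to the threshold and fell short of it with 100 added to every signal (-1.58), with centring on the median gene (-1.58) and with correction for exonic length and GC content (-1.55).

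*Sox10* (ENSMUSG00000033006, chromosome 15, 78985343 to 78994920, minus strand, 2713 exonic bases) was the member with the widest span. Its signal was 45 in cochlear HCs, 202.5 in cochlear ENSCs, 45.75 in vestibular HCs and 1183 in vestibular ENSCs, a 26.3-fold range. The HC libraries were nearly equal, and vestibular ENSCs stood above the other 3. HCs were 4.50-fold lower in the cochlea (log2 ratio -2.17) and 25.9-fold lower in the vestibular system (-4.69), and 76 genes of the table had a smaller vestibular ratio. The HC signals were low, and with every signal under 100 raised to 100 the cochlear log2 ratio was -1.02, under 3-fold.

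Glia and pigment cells also use *Sox10*, so their markers are given beside it. Of 8 Schwann cell and glial markers 7 were in the table, and their summed signal was 2964.5 in cochlear HCs, 3026.75 in cochlear ENSCs, 1064.25 in vestibular HCs and 3067 in vestibular ENSCs. *Erbb3*, a receptor that SOX10 is known to control in glia, had 1526.5 in cochlear ENSCs and 2114.5 in vestibular ENSCs. Of 7 melanocyte markers only *Mitf* was in the table, with 244.25 in cochlear and 247.5 in vestibular ENSCs. The summed glial signal thus differed by a small amount between the ENSC libraries, in which *Sox10* was 5.84-fold apart, and 2 of the 7 were past 3-fold towards the cochlea and 0 towards the vestibular system (7.80% and 7.94% of all genes). The endothelial marker *Kdr*, the 1 of 6 in the table, was at 1461.75 in vestibular ENSCs and between 24.25 and 29.75 in the other 3 libraries. The sort for CD326 is meant to leave out cells that are not epithelial, such as glia, pigment cells and endothelium, and their part in the *Sox10* signal of vestibular ENSCs was not tested.

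**Figure D2:**
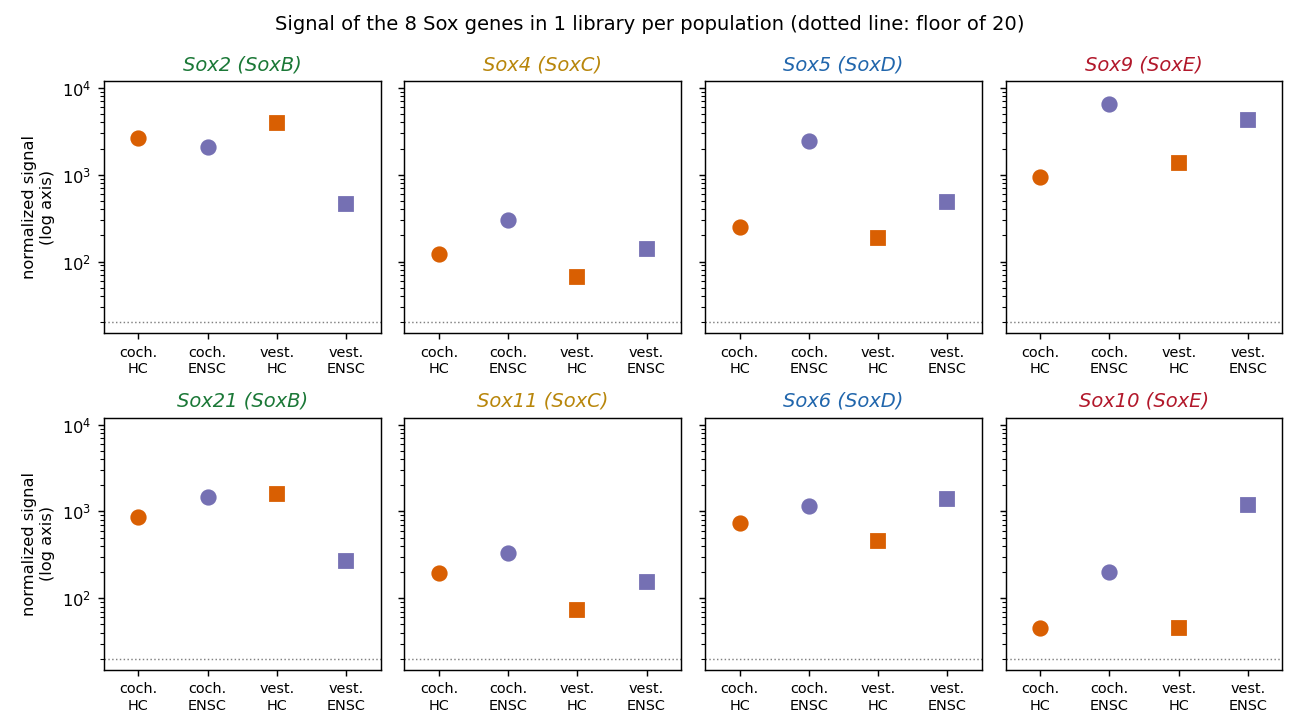
Normalized signal (log axis) of each of the 8 Sox genes in cochlear HCs, cochlear ENSCs, vestibular HCs and vestibular ENSCs, 1 point per library, HCs in orange and ENSCs in purple, circles for the cochlea and squares for the vestibular system. Each column holds the 2 genes of a group. Sox2 and Sox21 are lowest in vestibular ENSCs (465.75 and 265.5), and Sox10 is highest there (1183).

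*Sox5* (ENSMUSG00000041540, chromosome 6, 143776945 to 144730497, minus strand) stood at 251 in cochlear HCs, 2447.25 in cochlear ENSCs, 185.75 in vestibular HCs and 486.5 in vestibular ENSCs. Cochlear ENSCs stood apart from the other 3 libraries. With 9.75-fold less signal in HCs (log2 ratio -3.29) it had the smallest cochlear ratio of the family, and 1.44% of all genes had a smaller one. The vestibular log2 ratio was -1.39, under 3-fold, and passed it after length and GC correction (-1.77). *Sox6* (ENSMUSG00000051910, chromosome 7, 122614858 to 123182258, minus strand) had 731.75 and 1150.25 in cochlear HCs and ENSCs, and 456.5 and 1385 in vestibular HCs and ENSCs. It was the member with the narrowest span, 3.03-fold from lowest to highest. Its log2 ratios were -0.65 and -1.60, and the latter lay just past the threshold of 1.58 and fell short of it with pseudocounts of 20 (-1.56) or 100 (-1.42) and after centring (-1.54).

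*Sox4* (ENSMUSG00000076431, chromosome 13, 29040788 to 29045582, minus strand, 1 exon) and *Sox11* (ENSMUSG00000063632, chromosome 12, 28025562 to 28027574, minus strand, 1 exon) had lower signals than every other member except *Sox10*. The median signal over all genes was 120 in each library. In cochlear HCs, cochlear ENSCs, vestibular HCs and vestibular ENSCs *Sox4* stood at 121.5, 303, 67 and 140.5. *Sox11* stood at 195.75, 334.75, 74 and 151.75 in the same order. For both, cochlear ENSCs were highest and vestibular HCs lowest. Neither was 3-fold apart between HCs and ENSCs, with log2 ratios of -1.32 and -1.07 for *Sox4* and of -0.77 and -1.04 for *Sox11*, cochlea first. The annotation places a non-coding transcript on the opposite strand over 54.6% of the exonic bases of *Sox4*, and the nested model of the same name over 8.45%. Reads in such shared parts may have been left uncounted or assigned to either gene, so the level of *Sox4* is uncertain.

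The organs were compared next, separately for each cell type. In HCs no member was 3-fold apart in either direction, where over all genes 4.21% were at least 3-fold higher in cochlear HCs and 5.09% at least 3-fold lower. The log2 ratios of cochlear over vestibular HCs ranged from -0.85 for *Sox21* to 1.40 for *Sox11*, and that of *Sox10* was -0.02. In ENSCs 3 members exceeded 3-fold towards the cochlea, *Sox21* (log2 ratio 2.48), *Sox5* (2.33) and *Sox2* (2.18), and *Sox10* was at least 3-fold lower (-2.55). Over all genes 7.80% were at least 3-fold higher and 7.94% at least 3-fold lower in cochlear ENSCs. The remaining ENSC log2 ratios were 1.14 for *Sox11*, 1.11 for *Sox4*, 0.60 for *Sox9* and -0.27 for *Sox6*. The comparisons that use the vestibular ENSC library share that library, so the high vestibular HC over ENSC ratios and the high cochlear over vestibular ENSC ratios of *Sox2* and *Sox21* rest on the same pair of low values.

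The vestibular ENSC library also differed from the others in base composition. Among genes that exceeded the floor in the pair of libraries compared, GC-rich genes tended to lower log2 ratios of vestibular HCs over ENSCs (Spearman's rho with GC content was -0.395 over 10358 genes, which share libraries and are not replicates). The rho was -0.453 over 10475 genes for cochlear over vestibular ENSCs. The corresponding values were -0.040 for the cochlear ratio and 0.022 between HCs. The GC content of the members ran from 45.3% (*Sox5*) to 62.8% (*Sox11*), with 61.7% for *Sox10*, 58.3% for *Sox21* and 52.1% for *Sox2*. After subtraction of the trends on exonic length and GC content, *Sox2* and *Sox21* stood further above vestibular ENSCs in vestibular HCs (log2 ratios 3.64 and 3.69). Vestibular HCs were still at least 3-fold below ENSCs for *Sox10* (-3.26), but its ratio between ENSC libraries dropped under 3-fold (-1.55). For *Sox11* the direction of 1 ratio turned. Its vestibular log2 ratio went from -1.04 to 0.44, and that between ENSC libraries from 1.14 to 2.13.

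**Figure D3:**
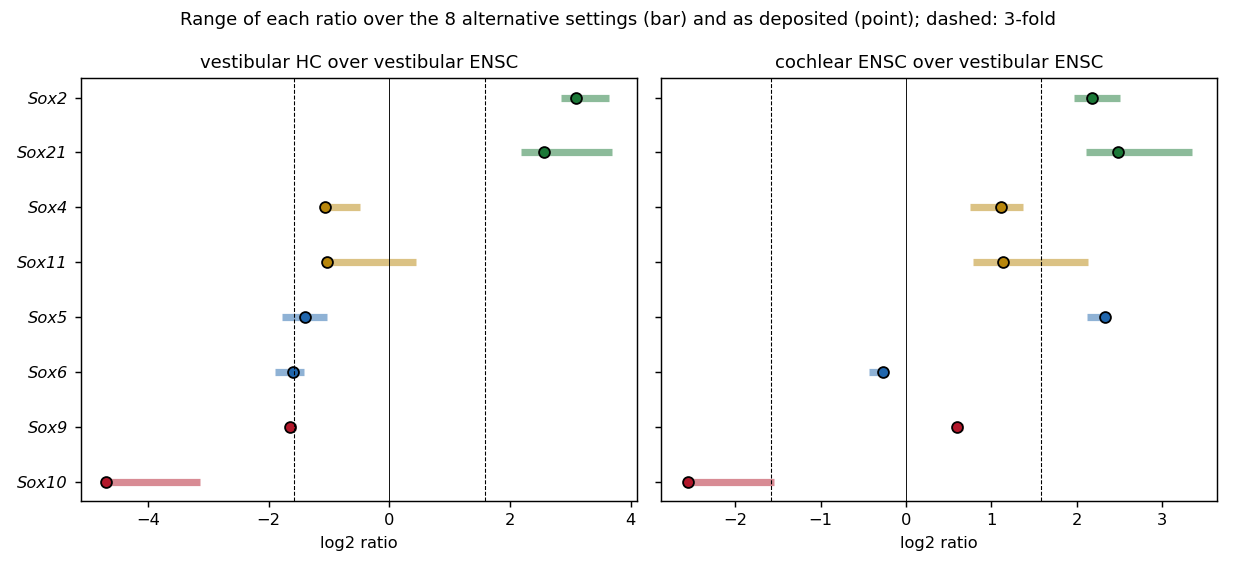
Log2 ratio of each Sox gene in the comparisons that use vestibular ENSCs, as deposited (point) and over 8 alternative settings of the floor, pseudocount, filter, centring, tied values and length and GC correction (bar), with dashed lines at 3-fold. The bars of Sox2 and Sox21 stay to the right of 3-fold in both panels, whereas that of Sox11 crosses 0 on the left.

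To compare levels between members, the signal was divided by the length of the union of annotated exons. Per kb, *Sox2* was the highest member in both HC libraries, with 1082 in cochlear HCs and 1612 in vestibular HCs, and *Sox9* in both ENSC libraries, with 1560.46 (cochlea) and 1032 (vestibular system). *Sox2* made up 60.9% of the summed per-kb signal of the 8 genes in cochlear HCs, 64.8% in vestibular HCs, 25.1% in cochlear ENSCs and 9.37% in vestibular ENSCs. *Sox9* made up 12.8%, 13.3%, 45.8% and 51.0% in the same order. The 2 HC libraries thus had a similar make-up, led by group B (73.8% and 81.4%), and the ENSC libraries were led by group E (48.0% and 72.6%). *Sox10* was the second member per kb in vestibular ENSCs (21.6%) and the lowest in cochlear HCs (0.934%). Order and shares depend on the annotated length. With the longest transcript in place of the union of exons the share of *Sox5* in cochlear ENSCs went from 4.99% to 9.42%, and the first 3 members were unchanged in each library.

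**Figure D4:**
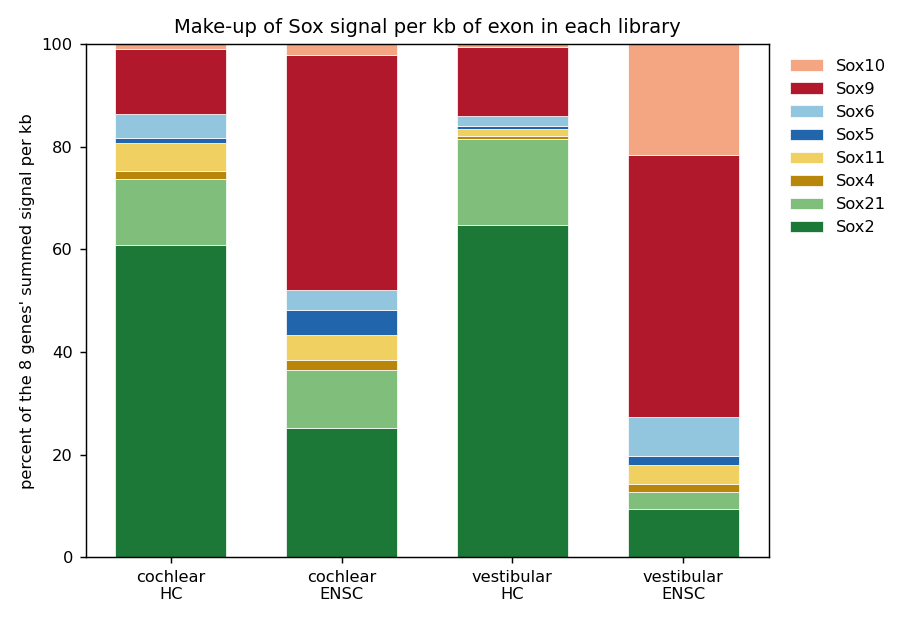
Share of each Sox gene in the summed signal per kb of annotated exon of the 8 genes (vertical axis, percent) in each of the 4 libraries, 1 bar per library. Sox2 and Sox21 in green make up 73.8% and 81.4% of the bars of cochlear and vestibular HCs, and Sox9 and Sox10 in red 48.0% and 72.6% of those of the ENSCs.

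Members were also set against each other within a library. Quantile normalization replaced each value by one shared between libraries, so these ratios are ratios of normalized signals and depend on that step. *Sox2* exceeded *Sox9* 2.84-fold in signal in cochlear HCs and 2.90-fold in vestibular HCs, and was 0.326 and 0.109 of *Sox9* in the ENSCs of these organs. The ratio of *Sox5* to *Sox6* was 2.13 in cochlear ENSCs and lay between 0.343 and 0.407 in the other 3 libraries. *Sox9* was 20.8 to 31.9 times *Sox10* in 3 libraries and 3.61 times in vestibular ENSCs. By contrast the ratio of *Sox11* to *Sox4* was 1.08 to 1.10 in 3 libraries and 1.61 in cochlear HCs.

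Likeness of the profiles was measured as the root mean square difference of log2 signals, each centred on the gene's mean over the 4 libraries. Of the 28 pairs the closest were *Sox4* and *Sox11* (0.24) and then *Sox2* and *Sox21* (0.43), each a pair within a group. *Sox5* and *Sox6* (1.10) came at place 11 and *Sox9* and *Sox10* (1.28) at place 12, behind pairs between groups such as *Sox4* and *Sox6* (0.49) or *Sox5* and *Sox9* (0.71). The pairs within groups B and C, which were closest in profile, also shared more bases of the HMG box (87.8% and 89.0%) than those within groups D and E (82.3% and 83.1%). Between groups there were cases of the reverse. *Sox4* and *Sox6* came at place 3 with 57.8% of bases shared, and *Sox21* and *Sox9* at place 20 with 73.4%. The most distant pair was *Sox2* and *Sox10* (3.07). With 4 libraries these distances are a description.

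**Figure D5:**
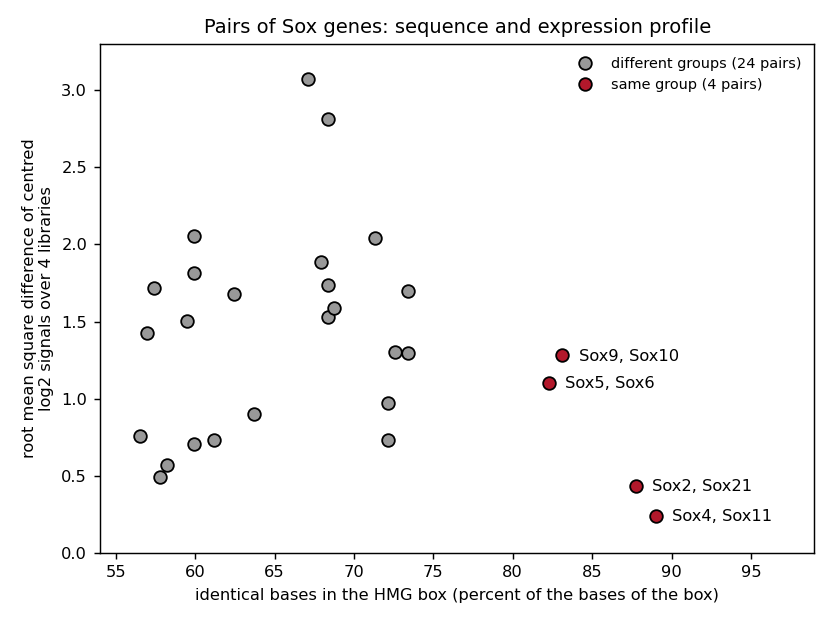
Root mean square difference of centred log2 signals over the 4 libraries (vertical axis) against identical bases in the HMG box (horizontal axis, percent of the bases of the box) for the 28 pairs of Sox genes, with the 4 pairs of the same group in red. Sox4 with Sox11 (89.0%, 0.24) and Sox2 with Sox21 (87.8%, 0.43) lie at the lower right, and Sox5 with Sox6 and Sox9 with Sox10 lie higher.

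Outside the family, the genes nearest to each member were sought among 6718 protein-coding genes whose highest signal reached 200. For *Sox2* they were *Dfna5* (distance 0.052), the mouse counterpart of a human deafness gene, and *Ccdc138* (0.064). For *Sox21* they were *Krt10* (0.050), a keratin, and *Mrps18c* (0.16), a protein of the mitochondrial ribosome. For *Sox9* they were *Alcam* (0.14), a cell adhesion protein, and *Suclg2* (0.16), an enzyme of the citric acid cycle. For *Sox10* they were *Lrp1* (0.11), an endocytic receptor, and *Maged1* (0.12). The vestibular HC signal of *Lrp1* (29.75) lay in the low range of that library, so its distance is uncertain. *Pla2g4a* (0.060) and *Akap5* (0.20) were nearest to *Sox5*, and *Slc44a2* (0.037) and *Mcmbp* (0.060) to *Sox6*. *Pex19* (0.11) and *Efnb2* (0.15) were nearest to *Sox4*, and *Tmed9* (0.068) and *Ralgapa2* (0.077) to *Sox11*. Between 6 genes (*Sox5*) and 136 genes (*Sox6*) lay within a distance of 0.25.

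Among the other rows named for *Sox* genes were *Sox8*, *Sox12* and *Sox13*. *Sox8*, the third gene of group E, had 23.5 in cochlear HCs, 22.5 in cochlear ENSCs, 29 in vestibular HCs and 447.25 in vestibular ENSCs. The first 3 values lay in that low range, so their order carries no information, and vestibular HCs had at least 14.7-fold lower and cochlear ENSCs at least 19.7-fold lower *Sox8* signal than vestibular ENSCs. Like *Sox10*, it was thus highest in vestibular ENSCs. *Sox13*, of group D, had 47.5, 55, 33.75 and 188.75 and was also highest in vestibular ENSCs (vestibular log2 ratio -2.48, and -1.25 after length and GC correction). *Sox12*, of group C, had 164.75, 94, 73 and 168 and was under 3-fold apart in each comparison.

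Genes known to work with or under SOX factors, or to be expressed beside them, were listed as groups. Of 12 cartilage-type matrix genes that SOX9 controls together with SOX5 and SOX6, the table held 9. Of these 1 (*Matn4*) was at least 3-fold higher and 7 at least 3-fold lower in cochlear HCs than in ENSCs, and 0 and 7 in vestibular HCs. The median log2 ratios were -2.70 and -3.94. Over all genes, 9.20% and 14.3% lay at least 3-fold lower in HCs of these organs. *Col2a1*, the main cartilage collagen, had 977.75 in cochlear HCs, 5438.75 in cochlear ENSCs, 399.75 in vestibular HCs and 22404.75 in vestibular ENSCs. *Col9a1* had 1069.75, 8876, 1706.75 and 21040.5. Between the ENSC libraries *Col2a1* and, by less than 3-fold, *Col9a1* were higher in the vestibular one, whereas *Col11a1*, another cartilage collagen, had 20412.75 in the cochlear and 10955.5 in the vestibular one. Of the 9 genes 1 was past 3-fold towards cochlear ENSCs, 2 towards vestibular ENSCs and 6 were under 3-fold (7.80% and 7.94% of all genes were past 3-fold). *Matn1*, another cartilage matrix protein, was the 1 past 3-fold towards cochlear ENSCs, with 3298.5 in cochlear ENSCs and 47.75 in vestibular ENSCs. Mesenchymal markers were also present in the ENSC libraries. Over the 6 of 8 such markers in the table the sums were 862 in cochlear HCs, 14493.75 in cochlear ENSCs, 217.25 in vestibular HCs and 1995 in vestibular ENSCs. *Lum*, a matrix proteoglycan, made up most of the cochlear ENSC sum, with 12731.25 there and 413.75 in vestibular ENSCs. The markers did not share 1 direction, since *Lum* and *Col1a2* were at least 3-fold higher in cochlear than vestibular ENSCs, whereas *Col1a1* (58.25 and 512.25) and *Col3a1* (46.25 and 547) were at least 3-fold lower. Their part in the matrix signal was not tested.

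Of 20 regulators of prosensory and supporting cells 19 were in the table. Cochlear HCs had 1 at least 3-fold higher and 3 at least 3-fold lower than ENSCs, and vestibular HCs 2 and 4, with median log2 ratios of -0.43 and 0.28. These are counts of 19 genes, to be read beside 8.39% and 9.20% of all genes (cochlea) and 13.8% and 14.3% (vestibular system), and they lie near those shares. *Isl1*, a transcription factor of the sensory patch, was among those higher in vestibular HCs, as *Sox2* was. It had 3682 in cochlear HCs, 4976.25 in cochlear ENSCs, 2957.25 in vestibular HCs and 339 in vestibular ENSCs. Its lowest library was thus vestibular ENSCs, as for *Sox2* and *Sox21*. *Jag1*, a Notch ligand of the prosensory domain, was also lowest there, with 761 against 1712.5 in vestibular HCs and 5297.5 in cochlear ENSCs. *Notch1*, its receptor, was instead highest there (1887, against 87.5 in vestibular HCs). Between the ENSC libraries 8 listed genes were past 3-fold towards the cochlea and 1 towards the vestibular system, with a median log2 ratio of 1.08, beside 7.80% and 7.94% of all genes.

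Of 12 SOX10 targets and glial markers 11 were in the table. Cochlear HCs had 1 at least 3-fold higher and 7 at least 3-fold lower than ENSCs, and vestibular HCs 0 and 4 (median log2 ratios -1.72 and -1.24). The shares over all genes, against which the counts of these last 3 lists stand, were 8.39% higher and 9.20% lower for cochlear HCs, and 13.8% and 14.3% for vestibular HCs. Of 6 targets of SOX4 and SOX11 the table held 5, of which 0 were at least 3-fold higher and 1 lower in cochlear HCs, and 1 higher and 2 lower in vestibular HCs. *Dcx*, a protein of migrating neurons, had 78.5, 815.5, 153 and 118, highest in cochlear ENSCs like both genes, as was *Stmn2* (30.75, 81.5, 22 and 20). The other 3 were not, since *Tead2* (179.5) and *Nes* (515.25) were highest in vestibular ENSCs and *Stmn1* (444) in vestibular HCs. Of 12 genes listed as coexpressed with SOX proteins or as their partners 9 were in the table. *Chd7*, a chromatin remodeler that binds SOX2, exceeded its ENSC signal over 3-fold in HCs of either organ (log2 ratios 1.81 and 2.45), with 2503.25, 714, 2323 and 423.75. The others past 3-fold were lower in HCs (3 for the cochlea, 4 for the vestibular system), among them *Tcf7l2*, an effector of Wnt signalling (-2.18 and -3.18).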

How the data were processed

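Gene expression in 4 sorted populations was measured by RNA-seq after NuGEN Ovation amplification. The deposited signal is a read count per ENSEMBL gene that the authors made with TopHat (mm9, first 50 nt of each read) and HTSeq. The counts carry quantile normalization and a floor of 20, and the order of these steps was not established here. Genes with at least 20 reads were kept. Versions, release and strand setting are not given in the sources used here, and depth is unknown. Non-HC columns were taken as the ENSC samples.

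The *Sox* rows were read by symbol, and log2 ratios of the signal were computed for all 12814 genes with no pseudocount. A gene was called at a ratio of at least 3. With 1 library per group no test was made. Exonic length and GC content came from GENCODE for NCBIM37 (12799 genes matched). Trends were removed by local regression (span 0.3, 2 robust iterations, statsmodels 0.14.6), first on length and then on GC content. The low range was read from each column, as the values up to a sharp drop in the signals that genes at that value had elsewhere. Alternatives were floors of 50 and 100, pseudocounts of 20 and 100, a minimum signal of 100, centring, folds of 2 and 5, low ranges set to their top, and the length and GC correction. Functions were tested on simulated data. Named genes were the members, other *Sox* rows, listed pathway genes and markers, and the 2 nearest profiles per member. Members and lists were chosen with earlier results of these data known. Values of some listed genes are not reported here.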

Additional observations from a re-analysis of the deposited data

Results flagged for a closer look

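Several *Sox* genes had effects of opposite sign in the organs or cell types. With 1 library per population these differences were not tested. *Sox21* was lower in HCs than ENSCs in the cochlea (log2 ratio -0.77) and higher in the vestibular system (2.56), and *Sox12* showed the reverse (0.81 and -1.20). Cochlear over vestibular log2 ratios had opposite signs in HCs and ENSCs for *Sox2* (-0.57 and 2.18), *Sox21* (-0.85 and 2.48), *Sox9* (-0.54 and 0.60), *Sox6* (0.68 and -0.27), *Sox12* (1.17 and -0.84) and *Sox13* (0.49 and -1.78). After length and GC correction the *Sox12* ratios that use vestibular ENSCs were near 0 (0.012 for HCs over ENSCs and 0.11 between ENSC libraries). The remaining pairs kept their opposite signs under that correction.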

How the results depend on the processing

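Over the alternatives 320 values of members (log2 ratios, and their vestibular minus cochlear differences) were recomputed. Of these, 302 kept their direction and their side of the 3-fold threshold. Many of the 302 could not change. The minimum signal of 100 only filtered genes, and every member passed it. Low ranges set to their top altered no member, since all lay above these ranges. The lower floor altered only values of *Sox10*. The count of 302 therefore overstates how stable the values were. No value past 3-fold changed sign. Members at least 3-fold lower in vestibular HCs than ENSCs numbered 3, and 1 with a pseudocount of 100, with centring or with a 5-fold threshold. At a 2-fold threshold they numbered 6, members higher in cochlear than vestibular ENSCs 5 instead of 3, and members higher in cochlear than vestibular HCs 1 instead of 0. After length and GC correction 0 instead of 1 was lower in cochlear than vestibular ENSCs (*Sox10*), and 4 instead of 3 were higher (with *Sox11*). Over all genes that correction gave 1867 higher and 1302 lower in vestibular HCs than ENSCs, against 1762 and 1837, and 974 and 629 in cochlear than vestibular ENSCs, against 999 and 1018. The median over all genes of the vestibular ratio was 0.11 with it, and 0.16 with low ranges set to their top. A pseudocount of 100 gave the fewest genes past 3-fold, 672 higher and 730 lower in vestibular HCs and 394 and 406 in cochlear HCs (1075 and 1179 without it), 115 and 163 between HCs (540 and 652), and 298 and 361 between ENSCs. At 2-fold the vestibular counts were 3017 and 3142, and at 5-fold 942 and 874. Leaving out a replicate was not possible with 1 library per group, and depth is unknown. The per-kb shares by longest transcript were added after the data were seen. No paired analysis was possible because each group has 1 library and the labels give no replicate numbers.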
